A study of Mus musculus with 6 samples.

Results

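The collagen genes are the genes that encode the alpha chains of collagen proteins, taken here as every gene in the files whose symbol is Col, a type number, a and a chain number. The rule found 41 such genes among 20325 genes, and 33 of the 41 had enough reads to be tested between the sorted populations. Mouse neural stem cells were reprogrammed for 7 days and sorted by staining for Nanog, a pluripotency transcription factor, and E-cadherin, the adhesion protein of epithelial cells encoded by Cdh1. RNA-seq was done on 3 libraries of Nanog+E-cadherin+ cells and 3 of Nanog+E-cadherin- cells, and the labels number the libraries of each population 1, 2 and 3. Every library came from the same kind of starting material: neural stem cells of postnatal day 4 mice of mixed 129/Black 6 strain, grown on gelatin and given doxycycline until day 7. The mice were homozygous at the ColA1 locus for a doxycycline-inducible cassette of Oct4, Sox2, c-Myc and Klf4 (Stemcca) and carried 1 copy of the transactivator rtta at Rosa26 (heterozygous), so both populations carried the same alleles, including the insertion at a collagen locus. The samples used here include no untreated neural stem cells and no pluripotent cells, and both populations stained for Nanog, so the comparison is only between cells with and without E-cadherin at the surface. Separate cultures or animals are not stated for the replicates, so each p-value reflects only how these samples spread, which may be technical. In a sorted bulk population, fewer cells of a type and less RNA per cell cannot be told apart.

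Collagens are secreted proteins in which 3 alpha chains wind into a triple helix, and the chains of each type are encoded by separate genes. Fibrillar collagens (types I, II, III, V, XI, XXIV and XXVII) form the cables of connective tissue, type IV collagens form the sheet of basement membranes, type VI forms beaded filaments, fibril-associated collagens sit on the surface of fibrils, and the multiplexins XV and XVIII sit at basement membranes. Chains are hydroxylated and folded in the endoplasmic reticulum, trimmed outside the cell, crosslinked by lysyl oxidases and bound by integrins and discoidin domain receptors. Fibroblasts are the best known source of fibrillar collagens, and the loss of mesenchymal genes with a gain of E-cadherin is a known step in the reprogramming of fibroblasts.

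Several type IV chains are encoded by neighbouring genes that start close together on opposite strands, and their promoter windows are shown because the levels of these paired chains are compared in every library below. The windows are RefSeq sequence of build GRCm38.p6, from 250 bases before to 50 bases after the start of each gene. Of the 41 collagens, 33 had at least 1 window, with 36 windows in all. Col4a1 (chr8:11312777-11313076, minus strand) and Col4a2 (chr8:11312555-11312854, plus strand) start 21 bases apart, and the capitals mark the 78 bases that both windows contain, read from opposite strands.
Col4a1: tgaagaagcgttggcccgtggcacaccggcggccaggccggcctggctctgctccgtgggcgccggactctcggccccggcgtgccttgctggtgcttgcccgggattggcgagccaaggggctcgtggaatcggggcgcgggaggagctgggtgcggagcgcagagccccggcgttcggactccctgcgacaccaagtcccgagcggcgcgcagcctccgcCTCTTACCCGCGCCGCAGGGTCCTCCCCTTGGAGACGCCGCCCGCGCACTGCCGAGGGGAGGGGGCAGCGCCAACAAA
Col4a2: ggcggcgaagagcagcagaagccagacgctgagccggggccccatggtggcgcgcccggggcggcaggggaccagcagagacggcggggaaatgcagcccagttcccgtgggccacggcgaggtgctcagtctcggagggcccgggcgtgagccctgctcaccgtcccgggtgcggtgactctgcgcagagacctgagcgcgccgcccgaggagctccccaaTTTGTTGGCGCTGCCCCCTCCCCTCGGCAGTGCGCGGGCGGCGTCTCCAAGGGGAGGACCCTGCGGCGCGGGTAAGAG
The next pair, Col4a5 (chrX:141475169-141475468, plus strand) and Col4a6 (chrX:141474027-141474326, minus strand), start 1343 bases apart, and their windows do not overlap. The window of Col1a2 (chr6:4505368-4505667, plus strand), the second chain of type I collagen, is shown with them because its level relative to Col1a1 is reported below. In these windows the capitals mark each match to CCAAT (the CCAAT box) and GGGCGG (the GC box) on either strand.
Col4a5: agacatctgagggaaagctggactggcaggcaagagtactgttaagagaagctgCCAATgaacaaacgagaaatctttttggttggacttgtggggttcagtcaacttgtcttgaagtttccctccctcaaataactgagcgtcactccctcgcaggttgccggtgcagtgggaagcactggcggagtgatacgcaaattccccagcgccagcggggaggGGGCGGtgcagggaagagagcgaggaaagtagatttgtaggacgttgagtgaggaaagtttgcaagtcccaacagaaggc
Col4a6: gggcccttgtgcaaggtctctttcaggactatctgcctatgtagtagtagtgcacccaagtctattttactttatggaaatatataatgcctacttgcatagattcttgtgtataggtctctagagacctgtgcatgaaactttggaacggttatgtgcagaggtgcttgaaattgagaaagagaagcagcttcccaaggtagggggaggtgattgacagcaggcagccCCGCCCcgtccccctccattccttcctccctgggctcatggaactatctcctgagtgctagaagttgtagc
Col1a2: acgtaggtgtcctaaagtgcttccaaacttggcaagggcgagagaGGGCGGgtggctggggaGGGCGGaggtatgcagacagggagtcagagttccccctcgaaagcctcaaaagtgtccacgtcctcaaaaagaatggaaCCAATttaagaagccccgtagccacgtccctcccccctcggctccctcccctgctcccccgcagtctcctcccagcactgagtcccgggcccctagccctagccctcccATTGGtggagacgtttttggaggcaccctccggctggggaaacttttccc
CCAAT was found on either strand in 13 of 36 collagen windows (36.1%) and in 37.4% of all 32851 mouse windows. GGGCGG was found in 22 of 36 collagen windows (61.1%) and in 35.7% of all windows. These are shares of windows and not of genes. The only GGGCGG match of Col4a1 lies in the 78 bases shared with Col4a2, so that site is in both windows. TATAAA, the TATA box, was found in 5 of 36 collagen windows (13.9%) and in 13.6% of all windows. A match is a description of the letters and not evidence of binding.

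Cdh1 separated the populations at 30.5 to 68.6 TPM (a transcript level scaled for transcript length and for the library total) in Nanog+E-cadherin+ and 5.20 to 9.68 TPM in Nanog+E-cadherin-, and Nanog lay between 115 and 211 TPM and between 134 and 172 TPM. Sox2, which is also on the reprogramming cassette, was at 202 to 498 TPM in the 6 libraries, and Nes, a neural stem cell marker, at 18.1 to 114 TPM. The libraries held 8851110 to 39630916 expected counts. A gene with 3 counts, the upper limit that a count of 0 allows, stands at 0.0757 to 0.339 CPM (counts scaled to the library total), and this limit covers counting error only. Samples with the same number deviated from their population means together, with correlations over all tested genes of 0.793, 0.447 and 0.541 for numbers 1, 2 and 3. Nanog+E-cadherin- replicates 2 and 3 stood apart in 1426 genes of olfactory and vomeronasal receptors, which summed to 1879 and 1209 CPM there and to between 31.9 and 154 CPM in the other libraries. The receptors had their 95th percentile at 2.60 and 1.19 TPM there, and collagen values near these levels in those libraries are to be read beside them.

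Collagen RNA was a small share of each library, between 0.0431% and 0.249% of all TPM, and the 5 highest mean levels were those of type IV, type I and type III chains. In both libraries numbered 1 the highest collagen was instead Col6a2, a type VI chain, at 72.7 and 95.6 TPM, and Col1a2 ranked 9 and 10. The summed collagen level was 431, 2490 and 1152 TPM in Nanog+E-cadherin+ replicates 1, 2 and 3, and 558, 1483 and 1624 TPM in Nanog+E-cadherin- replicates 1, 2 and 3. The libraries numbered 1 were lowest in both populations, and the populations overlapped. In all, 15 collagens averaged at least 10 TPM, 18 were above 1 TPM in every library and 10 were listed at 0 in at least 1 library. The 12 with the highest means were Col4a1, Col1a2, Col4a2, Col3a1, Col1a1, Col15a1, Col6a2, Col18a1, Col6a1, Col9a3, Col5a2 and Col2a1. Of these, 11 were among the top 12 in every library, and the exception was Col2a1, the chain of cartilage collagen, which ranked 18 and 22 in Nanog+E-cadherin+ and Nanog+E-cadherin- replicate 3. The neighbouring levels in this order did not separate beyond their spread, since Col4a1 ranged from 70.5 to 342 TPM and Col1a2 from 16.7 to 554 TPM over the 6 libraries.

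**Figure D1:**
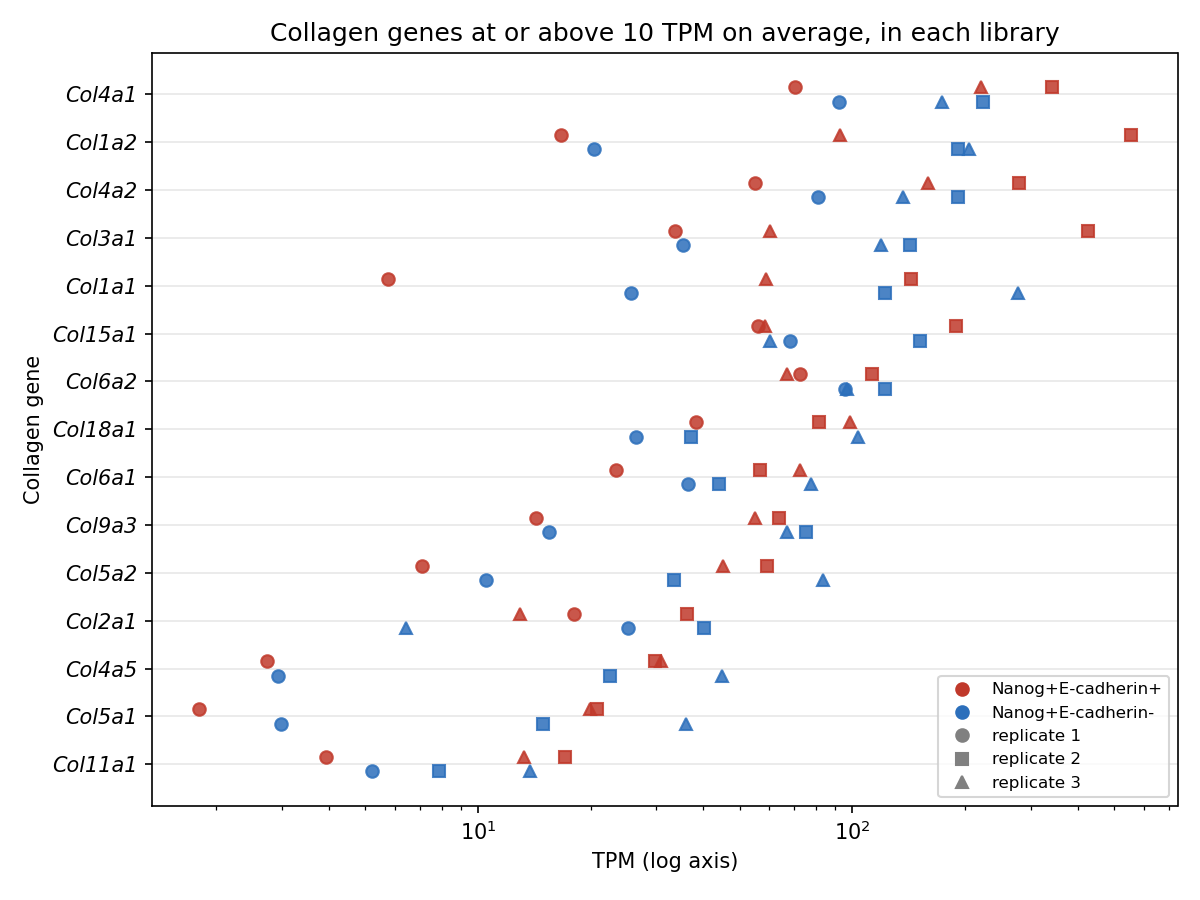
Level (TPM, log axis) in the 6 libraries of the 15 collagen genes that averaged at least 10 TPM, ordered by mean level, with 1 point per library, colours for the populations and shapes for the replicate numbers. Type IV, I and III chains lie at the top, points of both populations mix, and the circles of replicate 1 lie to the left in most rows.

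Among the fibrillar collagens, Col1a2 reached the highest value of any collagen. It stood at 16.7, 554 and 92.7 TPM in Nanog+E-cadherin+ and at 20.4, 191 and 205 TPM in Nanog+E-cadherin-. Both libraries numbered 1 were low, and the highest library was Nanog+E-cadherin+ replicate 2. Col3a1, the chain of type III collagen, which accompanies type I in soft tissue, was at 33.7, 426 and 60.2 TPM against 35.3, 142 and 119.5 TPM, again with Nanog+E-cadherin+ replicate 2 on top. Col1a1, the main chain of type I collagen, was at 5.76, 143 and 58.7 TPM in Nanog+E-cadherin+ and at 25.7, 122 and 277 TPM in Nanog+E-cadherin-. Col5a2, a chain of the type V collagen that is built into type I fibrils, was at 7.10, 59.2 and 45.3 TPM against 10.5, 33.4 and 83.7 TPM. For each of these 4 genes the populations overlapped. Col2a1 was at 18.1, 36.2 and 12.95 TPM against 25.2, 40.2 and 6.44 TPM, with both libraries numbered 3 lowest. Col11a1, a minor chain of cartilage fibrils, averaged 11.4 ± 6.76 against 8.98 ± 4.41 TPM (SD, n = 3 each). Col11a2 and Col27a1 averaged 1.38 and 3.06 TPM in Nanog+E-cadherin- and 0.69 and 1.45 TPM in Nanog+E-cadherin+. The highest Col11a2 value, 2.93 TPM, was in Nanog+E-cadherin- replicate 2, where the 95th percentile of the receptors was 2.60 TPM.

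The basement membrane chains Col4a1 and Col4a2, which assemble together in most basement membranes, were among the 4 highest collagens in all 6 libraries. Col4a1 was at 70.5, 342 and 220.3 TPM in Nanog+E-cadherin+ and at 92.3, 224 and 173 TPM in Nanog+E-cadherin-. Col4a2 was at 54.8, 279.5 and 159.6 TPM against 81.1, 192 and 137 TPM. In both genes the libraries numbered 1 were lowest and Nanog+E-cadherin+ replicate 2 was highest. Col4a5 and Col4a6, chains of specialised basement membranes, were at 2.73, 29.8 and 30.9 against 2.93, 22.6 and 44.8 TPM and at 1.23, 11.2 and 18.2 against 1.28, 8.95 and 18.7 TPM. Col4a3 and Col4a4, known from the kidney filter, did not exceed 1.28 TPM in any library, a value of Col4a3 in Nanog+E-cadherin- replicate 3, where that percentile was 1.19 TPM.

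The multiplexins and the type VI chains varied less between libraries. Col15a1 was at 56.0, 189 and 58.6 TPM in Nanog+E-cadherin+ and at 68.3, 151 and 60.4 TPM in Nanog+E-cadherin-, high in both libraries numbered 2. Col18a1, the source of the fragment endostatin, was at 38.2, 81.4 and 98.5 TPM against 26.5, 37.2 and 103 TPM. Col6a2 was at 72.7, 113 and 66.9 TPM against 95.6, 122 and 96.9 TPM, a narrow range with the Nanog+E-cadherin- value higher at each number. Col6a1 was at 23.3, 56.8 and 72.3 TPM against 36.4, 44.0 and 77.4 TPM. Col9a3, a chain of the fibril-associated type IX collagen, was at 14.3, 63.8 and 55.1 TPM against 15.5, 75.1 and 67.1 TPM. Its partner chain Col9a1 was nearly absent, at 0.04, 1.32 and 1.75 TPM in Nanog+E-cadherin+ and at 0.04 and 0.89 TPM with 1 library listed at 0 in Nanog+E-cadherin-.

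A further 8 collagens lay below the low-count filter and reached at most 1.5 TPM, namely Col28a1, Col24a1, Col6a6, Col6a4, Col17a1, Col10a1, Col19a1 and Col13a1. The value of 1.5 TPM was that of Col28a1 in Nanog+E-cadherin- replicate 3, where the 95th percentile of the receptor genes was 1.19 TPM. Col24a1 was at 0.92 TPM there and at no more than 0.04 TPM elsewhere. The same percentile was 2.60 TPM in Nanog+E-cadherin- replicate 2 and at most 0.36 TPM in the other 4 libraries, so that 24 and 28 collagens exceeded it in Nanog+E-cadherin- replicates 2 and 3 and 31 to 40 in the others. Among tested genes, Col25a1, a transmembrane collagen of neurons, was at 0.03, 0.79 and 0.38 TPM against 0.08, 1.33 and 2.62 TPM. The part of the receptor signal in these low values was not tested.

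Neither fit found a collagen that changed between the populations. With edgeR's quasi-likelihood test on group alone, 0 of 33 collagens passed a Benjamini-Hochberg adjusted p of 0.05, as did 0% of all 13460 genes tested, and at an unadjusted p under 0.05 the count was 0 of 33 beside 2.67% of all genes. When edgeR took the replicate number as a block, again 0 of 33 collagens passed the same threshold, beside 0.305% of all genes (0.215% higher and 0.0892% lower in Nanog+E-cadherin+). DESeq2 called 0 collagens on group alone (0.156% of all genes) and 1 with the block, Col18a1, where it called 2.26% of all genes. On group alone DESeq2 gave no adjusted p to Col11a1 or to any tested collagen of lower mean TPM. These were counted as not called. The median log2 fold change (Nanog+E-cadherin+ over Nanog+E-cadherin-) of the 33 collagens was -0.015 and that of all genes -0.013, and with the block the medians were 0.026 and 0.018. In the fit on group alone 16 collagens had a positive and 17 a negative fitted value. None of the 33 had populations that did not overlap in CPM, beside 6.99% of all genes tested (3.74% higher and 3.25% lower in Nanog+E-cadherin+). Among the 8 below the filter only Col13a1 did not overlap, and it rested on 3, 1 and 1 expected counts against 1, 0 and 0. The precision was low on group alone, where the standard error of log2 fold change was 0.42 for Col4a1, 0.95 for Col1a1 and 1.07 for Col1a2.

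**Figure D2:**
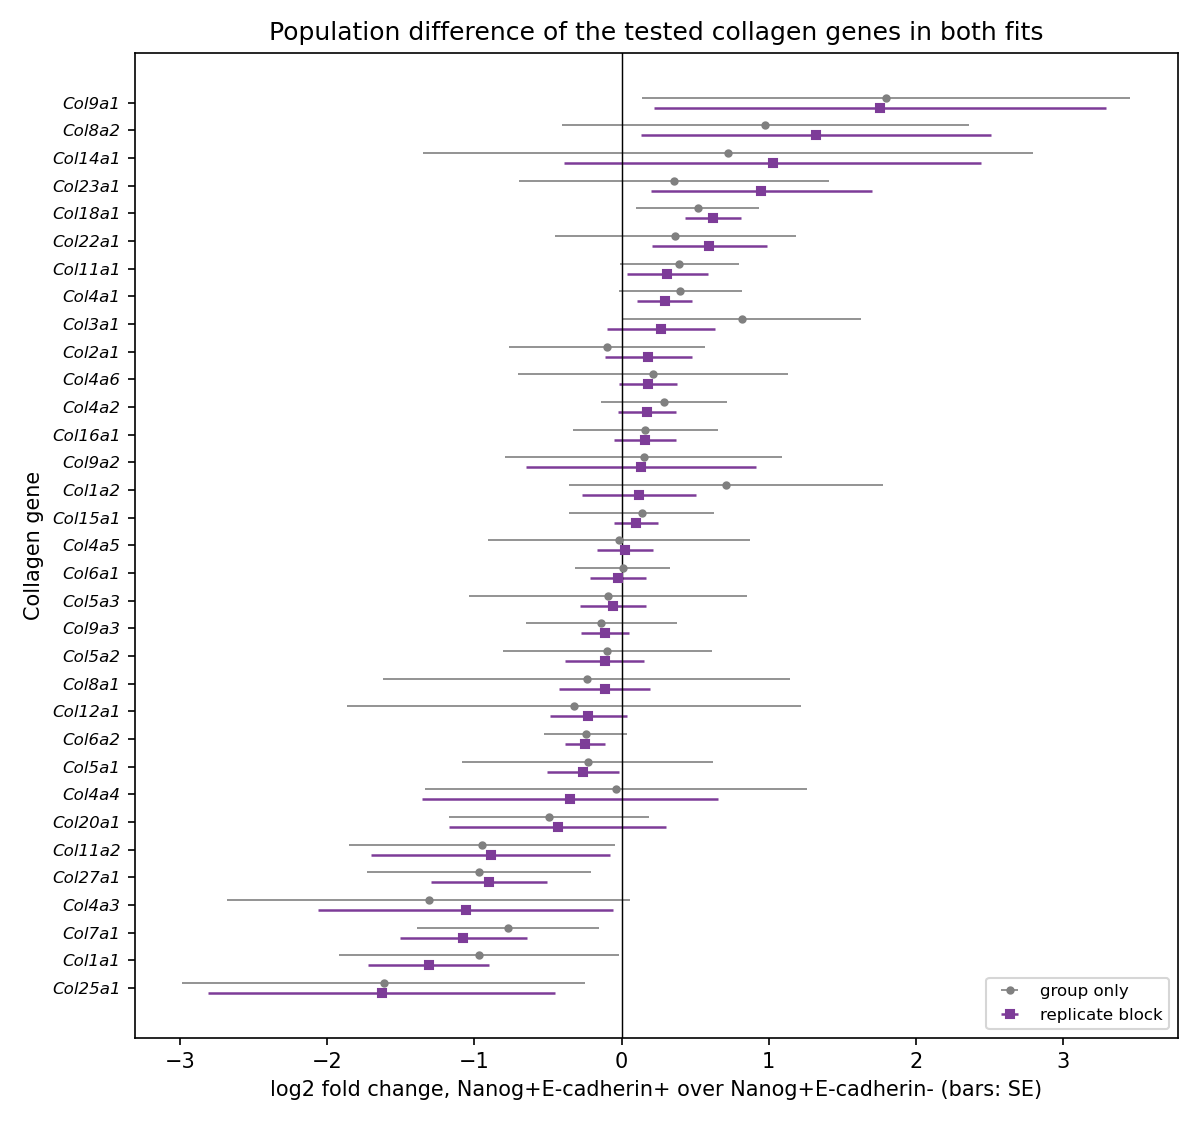
Fitted log2 fold change of the tested collagens (Nanog+E-cadherin+ over Nanog+E-cadherin-, edgeR) with its standard error, for the fit on group alone and the fit blocked on replicate number. The values lie on both sides of 0 no gene passed the adjusted threshold in either fit, and the standard error of Col4a1 is 0.42 on group alone and 0.19 with the block.

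At an unadjusted p under 0.05 in the edgeR fit with the block, 1 collagen was higher in Nanog+E-cadherin+ (5.51% of all genes were) and 3 were lower (5.19% of all genes were). The higher one was Col18a1, at 0.62 ± 0.19 (SE, log2), and its edgeR adjusted p was 0.29. Its log2 ratio in CPM was 0.63, 1.10 and 0.15 at numbers 1, 2 and 3, while in TPM the values at number 3 were 98.5 and 103. In DESeq2 with the block the log2 value was 0.64 and the adjusted p 0.049. Leaving out the pair numbered 3, edgeR with the block gave 0.87 and an adjusted p of 0.00319 from 2 pairs, so the call turns on that pair.

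The 3 lower collagens were Col1a1, Col7a1 and Col27a1. Col1a1 was 4.46-fold and 4.73-fold lower in Nanog+E-cadherin+ at numbers 1 and 3 in TPM, and 1.17-fold higher at number 2. The blocked fit gave -1.31 ± 0.41 (log2, SE) and an edgeR adjusted p of 0.306, and the fit on group alone -0.97 ± 0.95. Leaving out the pair numbered 2, edgeR with the block gave -2.04 and an adjusted p of 4.71e-12 from the 2 pairs left. The pair left out was the only one in the other direction, so that call turns on it. The 2 pairs left had nearly equal log2 ratios in CPM, -2.031 and -2.025. Leaving out single libraries or numbers gave values from -2.04 to -0.16. All 6 libraries share the cassette at the ColA1 locus, and its part in the reads of Col1a1 was not tested. Col7a1, the collagen of anchoring fibrils under epithelia, was at 0.38, 3.29 and 1.14 TPM against 1.54, 3.38 and 3.26 TPM, and its log2 fold change with the block was -1.07 ± 0.43 with an adjusted p of 0.432 from edgeR. Col27a1, a fibrillar chain of cartilage, was at 0.34, 2.43 and 1.57 TPM against 0.57, 3.69 and 4.91 TPM, and its value was -0.90 ± 0.40 (adjusted p of 0.467, edgeR). In Nanog+E-cadherin- replicates 2 and 3 the receptor genes reached 2.60 and 1.19 TPM at their 95th percentile, and their part in these low values was not tested.

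Counted by direction alone in TMM-scaled CPM, Col18a1 and Col4a6 were higher in Nanog+E-cadherin+ at all 3 numbers, 2 of 33 beside 18.9% of all genes. On the same scale Col6a2, Col9a3, Col27a1, Col7a1, Col25a1 and Col4a3 were lower at all 3 numbers, 6 of 33 beside 17.3% of all genes. In TPM, Col4a6 was instead lower at number 1 (1.23 against 1.28) and number 3 (18.2 against 18.7), and Col18a1 at number 3 (98.5 against 103). Most of these steps were small, as in Col9a3, whose log2 ratios were -0.02, -0.24 and -0.07. Col6a2 was the most even, with log2 ratios of -0.30, -0.13 and -0.32 and a fitted value of -0.25 ± 0.14 with the block (adjusted p of 0.555, edgeR). The abundant fibrillar chains turned direction between numbers: the log2 ratio of Col1a2 was -0.19, 1.53 and -0.93, and that of Col3a1 0.03, 1.57 and -0.77. Their fitted values with the block were 0.12 ± 0.39 and 0.27 ± 0.37. The median log2 ratio of the 33 collagens was -0.23, 0.36 and -0.13 at numbers 1, 2 and 3. The other members named by size of p, Col22a1, Col23a1, Col11a1, Col11a2, Col9a1 and Col25a1, had adjusted p-values from 0.628 to 0.724 in edgeR with the block.

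Summed by structural class, the collagens overlapped between the populations in all 8 classes, and exact permutation tests of the log2 sums gave adjusted p = 1 for each class. The smallest p such a test of 3 against 3 libraries can give is 0.1. Fibrillar chains summed to 88.8, 1266 and 322 TPM in Nanog+E-cadherin+ and to 128, 564 and 769.6 TPM in Nanog+E-cadherin-. They made up 20.6%, 50.8% and 27.9% of collagen TPM against 22.9%, 38.0% and 47.4%, so the class that led changed from library to library. Basement membrane chains summed to 129, 663 and 430.1 TPM against 178, 447 and 375 TPM. Type VI chains were the steadiest of the larger classes at 96.1, 169.7 and 139.6 TPM against 132, 167 and 174 TPM. Col6a3, a further type VI chain, was not among the 41 genes, so this sum and the chain ratios below leave it out. For all collagens together the mean was 1358 ± 1045 against 1222 ± 579 TPM (SD, n = 3 each; exact permutation p = 1). The class of Col7a1 and Col28a1 differed by -1.24 on the log2 scale and passed only in limma with the replicate block (adjusted p of 0.0439). Its sums were 0.38, 3.48 and 1.14 TPM against 1.55, 3.38 and 4.76 TPM, near the receptor level in 2 libraries.

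**Figure D3:**
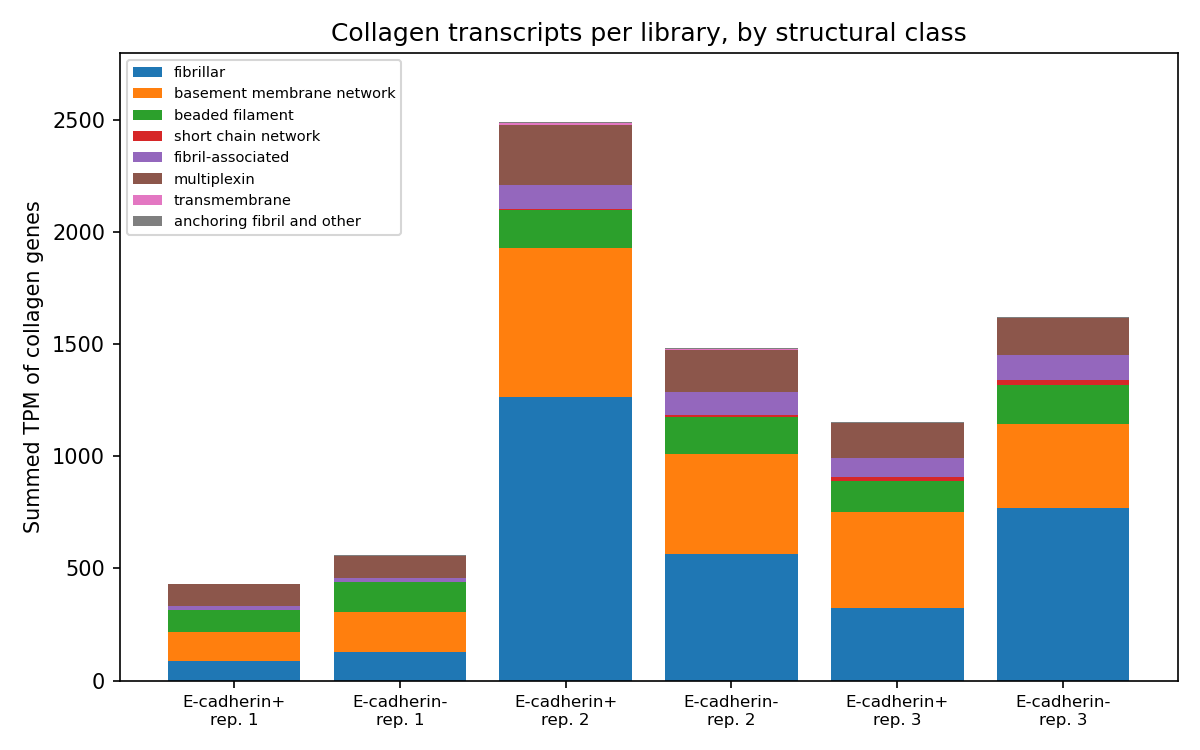
Summed level (TPM) of the collagen classes in each library, by population and replicate number. Fibrillar and basement membrane chains carry most of the level, and Nanog+E-cadherin+ replicate 2, at 2490 TPM in all, is the highest library.

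Most collagens differed between replicate numbers. In a test chosen after seeing the data, the edgeR F-test of the replicate terms over both populations, 21 of 33 collagens (63.6%) passed an adjusted p of 0.05, beside 22.2% of all genes tested. Of these 21, 18 were higher at numbers 2 and 3 than at number 1. Of the 33 tested, 32 were higher at number 2 and 29 at number 3 than at number 1, with median log2 differences of 1.77 and 2.11 where the medians of all genes were 0.05 and 0.00. With library totals or DESeq2's size factors in place of edgeR's TMM factors the count was again 21 of 33. The labels do not say what a number stands for, such as a culture, a day or a sort.

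The largest differences were in collagens of low or moderate level. Col14a1, a fibril-associated chain, had the largest fitted log2 difference at number 2, 6.61, and 2.73 at number 3 (adjusted p of 0.0422, edgeR), but it was at 0, 1.81 and 0.21 TPM in Nanog+E-cadherin+ and at 0.01, 1.21 and 0 TPM in Nanog+E-cadherin-, with 0 and 2 expected counts in the libraries numbered 1, so the fitted size is not a bound. Col12a1, a fibril-associated chain of stressed connective tissue, was at 0.07, 7.76 and 8.13 TPM in Nanog+E-cadherin+ and at 0.09, 6.30 and 15.5 TPM in Nanog+E-cadherin-, with log2 differences of 5.87 and 6.57 from number 1 (adjusted p of 0.000252, edgeR). Col8a1, a chain of the short chain collagen of vessel and corneal membranes, was at 0.21, 6.82 and 13.3 TPM against 0.32, 4.54 and 22.0 TPM. In both genes the 2 libraries numbered 1 were below 0.35 TPM and the other 4 above 4.5 TPM. Col1a2 differed by 3.64 and 2.35 on the log2 scale (adjusted p of 0.00426, edgeR), Col1a1 by 2.92 and 2.74, Col4a5 by 2.55 and 3.09, and Col4a6 by 2.33 and 3.24. Col4a1 and Col4a2 differed less, by 1.10 and 0.62 and by 1.11 and 0.48. The exceptions that passed and did not rise at both numbers were Col6a2 (-0.17 and -0.69), Col2a1 (0.17 and -1.77) and Col15a1 (0.79 and -0.70). These differences are on the scale of TMM-scaled counts. The same scaled count stood for 1.5 to 1.73 times as many TPM in the 4 libraries numbered 2 and 3 as in Nanog+E-cadherin+ replicate 1. In TPM the rises from number 1 are therefore larger and the falls smaller or turned. Col6a2 at number 2 was higher than at number 1 in TPM, at 113 against 72.7 in Nanog+E-cadherin+ and 122 against 95.6 in Nanog+E-cadherin-.

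**Figure D4:**
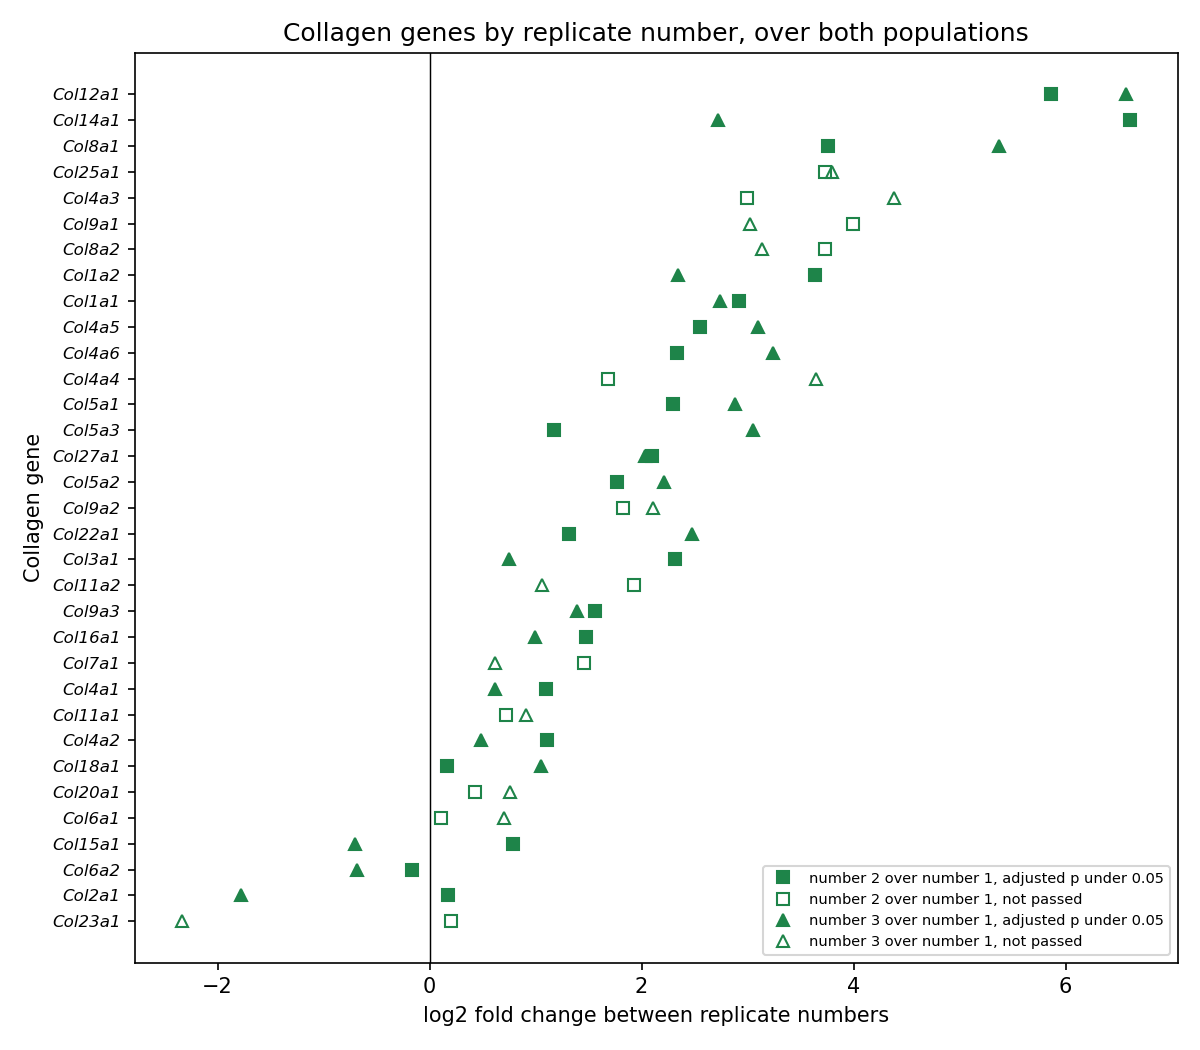
Log2 difference of each tested collagen between replicate numbers 2 and 1 and between numbers 3 and 1, fitted over both populations with edgeR on TMM-scaled counts. Nearly all points lie above 0, with Col14a1 and Col12a1 farthest out at number 2, Col12a1 and Col8a1 at number 3, and Col2a1, Col15a1, Col6a2 and Col23a1 below 0 at number 3; filled points passed an adjusted p of 0.05.

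Markers of other cell types also differed between replicate numbers. The 13 fibroblast and mesenchymal markers that are in no collagen list summed to 204, 1368 and 1518 TPM in Nanog+E-cadherin+ and to 208, 1783 and 1559 TPM in Nanog+E-cadherin-. Of the 12 that were tested, 6 passed the test of the replicate terms in edgeR, beside 22.2% of all genes, and 11 were fitted higher at number 2 and 8 at number 3 than at number 1. In both libraries numbered 1 the surface marker Thy1 was the largest part, at 97.4 and 112 TPM, while in the other 4 the smooth muscle gene Acta2 was, at 647 to 815 TPM. Pdgfrb, a receptor of mesenchymal cells, was at 0.60, 16.5 and 6.52 TPM against 1.28, 11.3 and 9.77 TPM, and Pdgfra at 0.74, 3.93 and 0.56 TPM against 1, 4.75 and 2.22 TPM. The 12 neural stem and radial glia markers summed to 553, 1157 and 1391 TPM against 827, 1292 and 1558 TPM, with 9 of 12 called by number, beside the same 22.2%. This sum includes Sox2, at 202 to 498 TPM, which is also on the cassette. Of the 12, 11 were fitted higher at number 2 and 9 at number 3 than at number 1. Gfap rose, at 22.2, 186 and 465 TPM against 10.7, 163 and 329 TPM. Hes5 fell, at 163, 28.2 and 4.56 TPM against 328, 40.0 and 14.7 TPM. The neuron markers summed to 615, 221 and 149.8 TPM against 859.95, 459 and 249 TPM, mostly Tubb3 and Stmn2, and 3 of 9 tested were called by number. Between the populations, 7 of these 9 were fitted lower and 2 higher in Nanog+E-cadherin+ with the replicate block. In CPM 4 of the 9 did not overlap and were lower, beside 3.25% of all genes. Tubb3 was called lower in edgeR with the block (adjusted p of 0.037), beside 0.0892% of all genes called lower. Endothelial markers summed to 3.50 to 28.2 TPM over the libraries. Macrophage markers summed to 9.97 to 31.8 TPM, mostly Cd68 at 8.90 to 24.6 TPM, with Ptprc at or under 0.12 TPM. The 8 pericyte markers summed to 16.4 to 54.2 TPM, mostly Notch3 at 11.5 to 35.0 TPM, and 2 of them, Rgs5 and Higd1b, were listed at 0 in every library. Oligodendrocyte lineage markers summed to 52.2 to 213 TPM. The part of any of these cell types in the collagen levels was not tested.

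Within a library, some chains of the same collagen type kept a near constant ratio while their levels moved. Ratios were computed only within a type, so a steady ratio cannot be called particular to such chains. Chains of different types also moved together. Col4a5 was at 2.73, 29.8 and 30.9 TPM against 2.93, 22.6 and 44.8 TPM. Col5a1 was at 1.80, 20.8 and 19.9 TPM against 2.98, 14.9 and 36.0 TPM. The ratio of Col4a2 to Col4a1 in TPM was 0.777, 0.817 and 0.724 in Nanog+E-cadherin+ and 0.878, 0.857 and 0.7895 in Nanog+E-cadherin-. It varied 1.21-fold over libraries in which Col4a2 varied 5.1-fold and Col4a1 4.85-fold. These are the neighbouring genes whose promoter windows share 78 bases, and the part of that overlap in the ratio was not tested. The ratio of Col4a6 to Col4a5 lay between 0.376 and 0.589 (1.57-fold) while the chains varied 15.2-fold and 16.4-fold. Col5a2 to Col5a1 lay between 2.24 and 3.94 while the chains varied 11.8-fold and 20.0-fold. Col6a2 to Col6a1, by contrast, was 3.12 in Nanog+E-cadherin+ replicate 1 and 0.925 in Nanog+E-cadherin+ replicate 3, a 3.37-fold range in chains that varied 1.83-fold and 3.32-fold. The exact permutation test gave p-values of 0.2 to 0.7 for these 4 ratios between the populations.

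Of the 5 ratios, the populations did not overlap in 1, that of the type I chains. Type I collagen is a trimer of Col1a1 and Col1a2 chains in which Col1a1 is the more frequent. Col1a2 to Col1a1 in TPM was 2.89, 3.87 and 1.58 in Nanog+E-cadherin+ and 0.794, 1.57 and 0.739 in Nanog+E-cadherin-. The margin was narrow, as the lowest Nanog+E-cadherin+ value was 1.580 and the highest Nanog+E-cadherin- value 1.565. The means were 2.78 ± 1.15 and 1.03 ± 0.46 (SD, n = 3 each), the exact permutation p was 0.1, the smallest that 3 against 3 libraries can give, and adjusted over the 5 ratios it was 0.5. At numbers 1, 2 and 3 the ratio was 3.64-fold, 2.47-fold and 2.14-fold higher in Nanog+E-cadherin+, a mean log2 difference of 1.42 ± 0.40 (SD over 3 pairs; exact sign-flip p = 0.25, the smallest that 3 pairs can give).

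**Figure D5:**
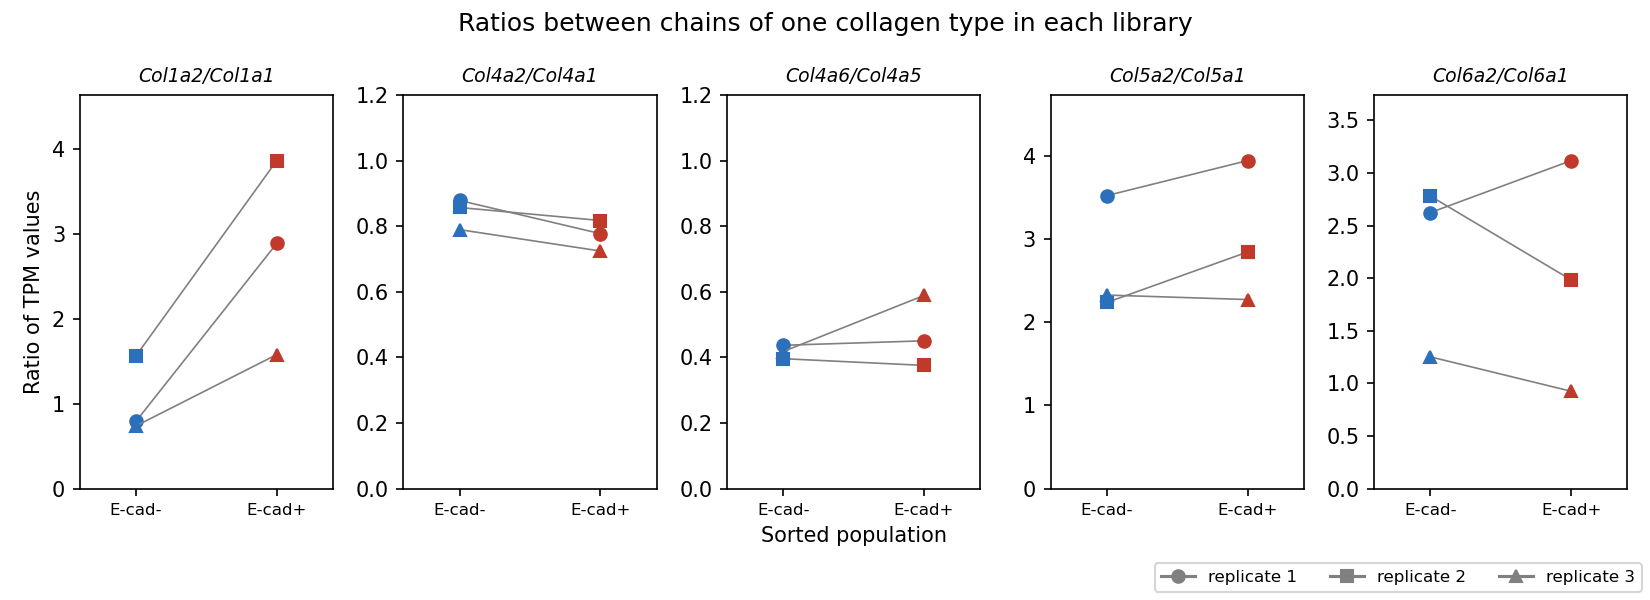
Ratio in TPM of chains of the same collagen type in each library, by population. Col4a2 to Col4a1 stays between 0.724 and 0.878, and Col1a2 to Col1a1 is at 1.58 or above in Nanog+E-cadherin+ and at 1.57 or below in Nanog+E-cadherin-.

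The other genes of the collagen pathway, in 5 lists of 80 genes found in the files, gave the same count between the populations. Among the 70 with enough reads, edgeR called 0 at an adjusted p of 0.05 on group alone (0% of all genes) and 0 with the replicate block (0.305% of all genes). At an unadjusted p under 0.05, 1 was lower on group alone, Leprel1, a prolyl 3-hydroxylase (2.67% of all genes changed), and with the block 4 were higher and 8 lower (5.51% and 5.19% of all genes, 10.7% together). Leprel1 was at 0.29, 0.65 and 0.35 TPM against 0.39, 1.73 and 7.42 TPM, highest in the receptor-rich Nanog+E-cadherin- replicates 2 and 3. The median log2 fold change of the 70 genes was -0.05 on group alone and -0.06 with the block. DESeq2 with the block called 4 of the 70 where it called 2.26% of all genes. Of these 4, Postn (periostin, a matrix protein of fibroblasts) was at 0.05, 0.57 and 1.31 TPM against 0.54, 2.05 and 16.8 TPM, with a log2 fold change of -2.91 and an adjusted p of 0.00314 in DESeq2. Its highest value was in Nanog+E-cadherin- replicate 3, a receptor-rich library, and on group alone in edgeR the log2 fold change was -3.17 with that library and -1.04 without it (-4.28 without Nanog+E-cadherin+ replicate 3). The others, chosen after their values were seen, were Fmod (fibromodulin, a fibril-binding proteoglycan; 1.17, adjusted p of 0.00825), Tgfbi (a collagen-binding matrix protein; 0.99, adjusted p of 0.00426) and Lama1 (a basement membrane laminin chain; 0.73, adjusted p of 0.0408), all higher in Nanog+E-cadherin+ in DESeq2 with the block. In edgeR with the block the 4 had adjusted p-values of 0.17 to 0.284.

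The folding list held the most abundant of these genes, and 17 of its 18 members were tested. Serpinh1, the collagen chaperone Hsp47, was at 381, 618 and 567 TPM against 382, 650.4 and 585 TPM, with a log2 fold change of 0.06 ± 0.13 with the block. P4hb, a subunit of prolyl 4-hydroxylase, was at 236, 327 and 289 TPM against 249, 281 and 266 TPM. P4ha1, its catalytic subunit, was at 28.3, 18.4 and 17.8 TPM against 40.3, 23.4 and 33.9 TPM, lower in Nanog+E-cadherin+ at each number, with -0.50 ± 0.17 with the block (adjusted p of 0.356, edgeR). Crtap, a partner of prolyl 3-hydroxylase, was the only one of the 70 whose populations did not overlap in CPM, beside 6.99% of all genes. Its TPM values were 55.3, 90.0 and 88.3 against 47.9, 69.7 and 76.8, and its log2 fold change with the block was 0.36 ± 0.16 (adjusted p of 0.478, edgeR). Plod2, a lysyl hydroxylase, and Sec23a, a coat protein for collagen export, had fitted values of -0.11 ± 0.39 and -0.51 ± 0.31 on group alone. Of the 17 genes 6 were called by replicate number, beside 22.2% of all genes, and Serpinh1 differed by 0.07 and -0.04 on the log2 scale from number 1.

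In the other lists, the counts are to be read beside the 22.2% of all genes called by the same test. Of 12 tested processing and crosslinking genes 10 were called by replicate number, of 8 receptors 4, of 12 breakdown genes 7 and of 21 matrix partners 15. Lox, the founding lysyl oxidase, was at 0.34, 12.9 and 4.85 TPM in Nanog+E-cadherin+ and at 0.56, 7.07 and 11.7 TPM in Nanog+E-cadherin-. Sparc, a secreted collagen-binding protein, was at 40.6, 474 and 682 TPM against 29.4, 484 and 684 TPM, and Fn1, fibronectin, at 68.3, 318 and 248 TPM against 71.1, 232 and 267 TPM. In these 3 genes both libraries numbered 1 were lowest. Itgb1, the shared beta chain of collagen-binding integrins, was at 42.1, 109.97 and 117 TPM against 39.8, 99.1 and 159 TPM. Ddr1, a collagen-activated receptor kinase, was at 18.8, 99.8 and 196 TPM against 31.6, 165 and 189 TPM. Mmp14, a membrane-bound collagenase, was at 22.6, 151 and 154 TPM against 38.1, 181 and 153 TPM. The alpha chains Itga2, Itga10 and Itga11 did not exceed 5.25 TPM. Adamts14, a procollagen trimming protease, and Tll2, a tolloid protease, had log2 fold changes of -1.08 ± 0.35 and -1.004 ± 0.41 with the block (adjusted p of 0.336 and 0.432, edgeR). Thbs2 and Reck had -0.87 ± 0.27 and -0.68 ± 0.30 (adjusted p of 0.304 and 0.458, edgeR). For the remaining genes named by size of p, Loxl2, Ctsk, Mmp16 and Lum, edgeR's adjusted p with the block was 0.541 to 0.767.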

How the data were processed

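RNA-seq libraries of 6 sorted samples, 3 per population, were analysed from gene tables deposited by the authors. Per the submitters' processing notes, the tools were Bowtie and RSEM 1.2.4 with genome build mm9; strand use is not given in the sources used here. RSEM shares reads that map to several genes between them. Per the file headers, the deposited tables give an expected count, TPM and FPKM per gene, and FPKM entered only an alternative for the chain ratios. Expected counts were rounded to whole numbers and tested with edgeR 4.0.16 (TMM scaling, filterByExpr with a minimum count of 10 and a minimum total of 15, quasi-likelihood test, Benjamini-Hochberg adjustment over all 13460 genes tested). The main design had the group alone, and the replicate block was an alternative. DESeq2 1.42.0 on counts and limma 3.58.1 on log2(TPM + 1) and log2(TPM + 0.1) were further alternatives, as were other scalings, no filter and leaving out libraries. TPM values were used as deposited for levels, class sums and ratios, with exact permutation tests of log2 values. Ratios at 1 number use TMM-scaled CPM with 0.5 added.

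The replicate numbers were taken to pair the samples because every same-number correlation of deviations (0.793, 0.447 and 0.541) was over 0.1. The pairing comes from the values, not from a label. Different numbers gave -0.65 to 0.164, so the limit of 0.1 alone does not single out the same-number pairs. The biological coefficient of variation was 0.499 without and 0.285 with the block. Depth was 8851110 to 39630916 expected counts, and floors cover counting error only. The edgeR standard errors were derived from the fold change and the quasi-likelihood F statistic, and they include the fitted spread between libraries. Named collagens were the 12 of highest mean TPM, any with adjusted p under 0.05, the 4 of smallest p in each direction in either fit, and any whose groups did not overlap; pathway genes were the 3 of smallest p per list and a set of well known members. The members and lists were chosen with earlier results of these data known. The test of replicate terms and the fits without both receptor-rich libraries were added after seeing the data. The scripts were tested on simulated data. Promoter windows came from RefSeq for GRCm38.p6 and not from the build of the files.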

Additional observations from a re-analysis of the deposited data

How the results depend on the processing

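The standard errors of Col4a1 and Col1a2 were 0.42 and 1.07 (log2) on group alone and 0.19 and 0.39 with the replicate block, which sets the precision of the comparison; what depth adds to it was not tested. No collagen was called in edgeR with the replicate block, as with group alone. The count of collagens called was 1 in DESeq2 with the block (Col18a1), and 0 to 1 when single libraries or numbers were left out. The count of pathway genes was 4 in DESeq2 with the block and 0 to 5 when single libraries or numbers were left out. Over all genes, the block raised the calls from 0 to 41, DESeq2 gave 21 on group alone and 304 with the block, and no filter gave 1. The class of Col7a1 and Col28a1 differed by -1.24 (log2) and passed with the block in limma. The median log2 fold change of the collagens ranged from -0.356 to 0.456 when libraries or numbers were left out, and that of pathway genes from -0.212 to 0.135 (-0.178 with the block and without number 2); it was -0.155 in limma on log2(TPM + 0.1). Without both Nanog+E-cadherin- libraries rich in receptor reads, chosen after seeing the data, these medians were 1.143 and 0.601, the class sums of short chain and fibril-associated collagens differed by 2.926 and 1.402, and the ratio of Col5a2 to Col5a1 differed by -0.259 (log2); replicate 1 then stands alone in its group, assumed to vary like the other, and replicate number and population cannot be told apart.

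Of 45 named genes with a fit, 27 changed sign under at least 1 setting, 12 of them among 20 collagens. With the replicate block, Col6a1 was -0.024, Col2a1 0.183 and Itgb1 0.031, and with DESeq2 and the block they were -0.01, 0.209 and 0.045, with Plod2 at 0.012. Without the filter Lox was 0.009 and Itgb1 0.007. In limma on log2(TPM + 1) and log2(TPM + 0.1), Col15a1 was -0.002 and -0.003, Col6a1 -0.119 and -0.124, Col2a1 0.101 and 0.124, and Serpinh1 -0.041 in both. Leaving out 1 library at a time turned the sign of Col9a3 (-0.489 to 0.204), Col5a2 (-0.481 to 0.699), Lox (-1.09 to 0.669), Itga11 (-0.921 to 0.336), Itgb1 (-0.278 to 0.356), Ddr1 (-0.959 to 0.283), Mmp14 (-0.449 to 0.323), Col1a2 (-1.096 to 1.244), Col4a2 (-0.156 to 0.615), Col3a1 (-0.757 to 1.254), Col15a1 (-0.413 to 0.509), Col23a1 (-0.201 to 0.816), Plod2 (-0.415 to 0.339), Fn1 (-0.045 to 0.578), Col6a1 (-0.255 to 0.241), Col2a1 (-0.573 to 0.248), Col22a1 (-0.065 to 1.568), Sparc (-0.507 to 0.702), P4ha1 (-1.048 to 0.029), Col11a2 (-1.281 to 0.065), Loxl2 (-0.787 to 0.177), Itga2 (-2.572 to 1.11), Ctsk (-1.229 to 0.133), Lum (-2.258 to 0.033). With the replicate block and without both libraries numbered 1, the values that changed sign were Col5a2 0.083, Col2a1 0.519, Plod2 0.047, Itga11 0.177. With the replicate block and without both libraries numbered 2, the values that changed sign were Col1a2 -0.562, Col4a2 -0.012, Col3a1 -0.369, Col15a1 -0.007, Col6a1 -0.212, Col2a1 0.389, Col11a1 -0.073, Itga10 0.057. With the replicate block and without both libraries numbered 3, the values that changed sign were Col6a1 -0.09, Col5a2 0.194, Plod2 0.233, Lox 0.241, Itga2 0.581, Itgb1 0.17, Ctsk 0.116. The cause of these changes was not tested.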
